A study of Mus musculus with 21 samples.

Results

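MHC class II genes and the genes that load class II molecules with peptide were examined in RNA from mouse circumvallate taste buds. The members were 10 named genes of 43193 gene names in the authors' merged annotation: H2-Aa, H2-Ab1, H2-Eb1, H2-DMa, H2-DMb1, H2-Oa, H2-Ob, Cd74, Ciita and Ctss. Each was found by its gene name in that annotation and read at the locus of the authors' expression table that holds its exons. The tissue came from wild-type C57BL/6J mice, an inbred strain, aged 20 to 24 weeks. The labels give 7 libraries each for Hungry, Satiated and Ad lib mice, 21 in all, and do not say whether animals were pooled. The series asks how immune genes differ between fed and fasted mice, but all 5 value columns were identical for the 3 conditions at all 32052 loci. Every value below therefore pools Hungry, Satiated and Ad lib libraries, the table holds no value for a single library, and no comparison of feeding states could be made.

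MHC class II molecules are pairs of an alpha and a beta chain that carry peptides from endosomes to the cell surface, where CD4+ T cells read them. New pairs bind the invariant chain, encoded by Cd74, which blocks the groove until proteases such as cathepsin S, encoded by Ctss, cut it down to a short remnant. H2-DM then exchanges the remnant for other peptides, and H2-O restrains H2-DM. The genes are switched on by the transactivator encoded by Ciita, which docks on factors bound to short promoter elements called the X and Y boxes. Dendritic cells, macrophages and B cells are the classical sources, and interferon gamma can induce the pathway in epithelial cells.

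Promoter windows of the members were searched for short motifs of the X and Y boxes. These motifs had been chosen with the class II sequences in view. The Y box core was searched as TGATTGG, and the end of an X box form as ATGATGC, on both strands of RefSeq promoter windows on GRCm38.p6 that run from 250 bases before to 50 bases after a gene's start. The table of windows held 7 of the 10 members, and TGATTGG lay on the gene's strand in 5 of them: H2-Aa, H2-Eb1, H2-DMb1, H2-Oa and H2-Ob. The windows of H2-DMa, which lie upstream of its locus in the authors' table, and of Ctss held neither motif, and windows of H2-Ab1, Cd74 and Ciita were not analysed here. Stretches of 60 bases are shown for H2-Aa, H2-Eb1 and H2-Ob, and for the relatives H2-DMb2 and H2-Eb2, because each holds TGATTGG, with ATGATGC before it in H2-Eb1, H2-Ob and H2-DMb2 and without it in H2-Aa and H2-Eb2. Only these exact strings were searched, so a stretch without ATGATGC may still hold another X box form. Stretches of H2-DMb1 and H2-Oa overlap exons of the merged annotation and are not shown. The shown stretches are written 5′ to 3′ on the gene's strand, with matches to either motif in capitals. All lie on chromosome 17, at chr17:34287859-34287918 (minus strand, H2-Aa), chr17:34305761-34305820 (plus strand, H2-Eb1), chr17:34238801-34238860 (plus strand, H2-Ob), chr17:34145112-34145171 (plus strand, H2-DMb2) and chr17:34325528-34325587 (plus strand, H2-Eb2).
H2-Aa: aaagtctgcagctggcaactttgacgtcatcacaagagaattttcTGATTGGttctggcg
H2-Eb1: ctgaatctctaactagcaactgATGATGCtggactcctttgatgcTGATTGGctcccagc
H2-Ob: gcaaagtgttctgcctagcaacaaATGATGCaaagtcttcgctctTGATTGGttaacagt
H2-DMb2: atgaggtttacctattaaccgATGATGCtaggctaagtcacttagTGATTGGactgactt
H2-Eb2: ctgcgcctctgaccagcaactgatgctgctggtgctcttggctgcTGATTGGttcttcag

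TGATTGG began 50 bases before the start of H2-Aa, 61 before H2-Eb1, 59 before H2-Ob, 63 before H2-DMb1 and 45 before H2-Oa. For the relatives it began further away, 92 bases before H2-DMb2 and 102 before H2-Eb2. The H2-DMb2 window lies inside its locus in the authors' table, which begins upstream of the window. ATGATGC stood upstream of it in H2-Eb1, H2-Ob, H2-DMb1 and H2-DMb2, with 16, 14, 17 and 17 bases between the motifs, which do not overlap. Among 32817 promoter windows of all genes, 7.8% held TGATTGG, 2.46% held ATGATGC and 0.171% held both. With ATGATGC 10 to 25 bases before TGATTGG on 1 strand, 6 windows were left, or 0.0183%. They were those of H2-Eb1, H2-Ob, H2-DMb1, H2-DMb2, Tmsb15l and Tmsb15b2, and the motifs and the distance had been chosen with the class II sequences in view. A match is a string of letters and not a measured binding site, and genes with both motifs had very different levels, as the values of H2-Eb1 and H2-Ob below show.

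Of the 10 members, 8 were detected, that is, their locus averaged 10 or more compatible fragments per library. Compatible fragments are those that match an annotated transcript, scaled by the authors for library depth. Of all gene names, 52.7% were detected in this way. Together the 10 member loci held 1917 of the 21881979 compatible fragments of the mean library, or 0.00876%. The median level of the 8 detected members was 145 fragments, against 514 over all 13467 detected loci. In such bulk RNA, few cells with much class II RNA and many cells with little cannot be told apart. Loci of 6 members held no other gene name, and those of H2-Oa, Cd74, Ciita and Ctss did. At loci of a single gene name 5 of the 10 members were detected, where 20.1% of all gene names were.

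**Figure D1:**
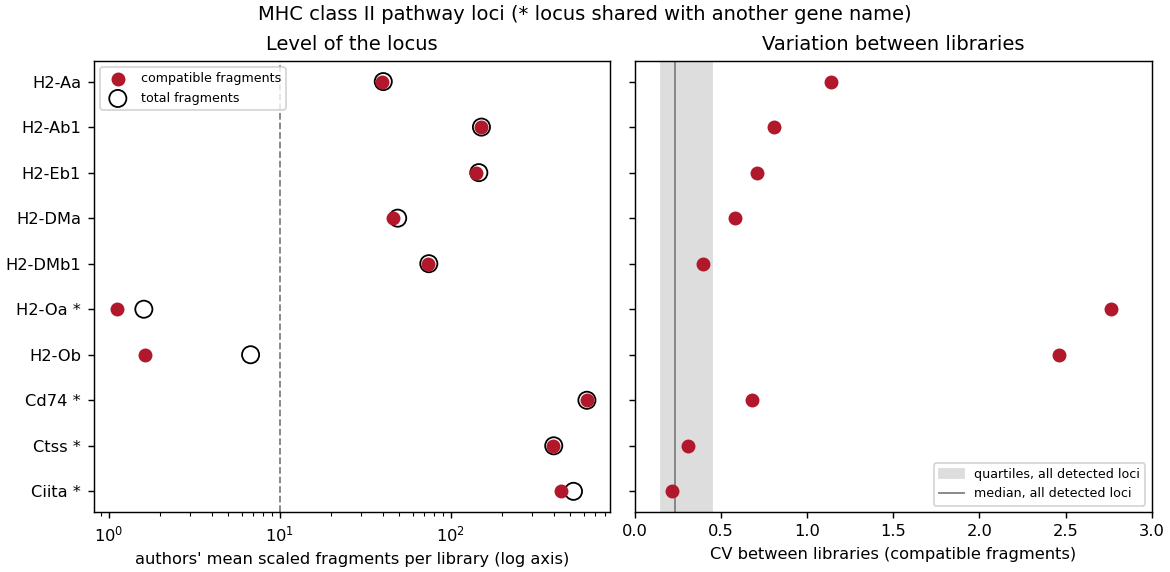
Left, authors' mean scaled fragments per library on a log axis for each member's locus, compatible (filled) and total (open), with the detection minimum of 10 dashed. Right, coefficient of variation between libraries, with the quartiles (0.151 to 0.449) and median (0.231) of all detected loci in grey. H2-Oa and H2-Ob are the only members left of the dashed line, and H2-Aa, H2-Ab1, H2-Eb1, H2-DMa and Cd74 lie right of the grey band among the detected members.

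The classical chains were all detected. H2-Ab1, the beta chain of the I-A molecule, had 150.5 compatible fragments per library (GRCm38, chromosome 17, 34263209 to 34269418, plus strand, 4 transcripts in the merged annotation). Its partner H2-Aa, the I-A alpha chain, had 39.9 fragments (chromosome 17, 34282744 to 34287827, minus strand). H2-Eb1, the I-E beta chain, had 140.2 fragments (chromosome 17, 34305877 to 34316199, plus strand). At all 3 loci nearly every fragment matched an annotated transcript, with compatible shares of 99.4% for H2-Ab1, 98.7% for H2-Aa and 95.9% for H2-Eb1. Mice of the H-2b haplotype, to which C57BL/6J belongs, are known to lack the I-E alpha chain because of a promoter deletion. The I-E alpha pseudogene H2-Ea-ps was listed at 0 compatible fragments, with 0.506 total fragments. H2-Eb2, a second E beta gene, had 0.228 compatible and 1.58 total fragments. The RNA thus held an E beta transcript at a level of 118 fragments per kb of exon beside an E alpha locus listed at 0.

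The exchange factors divided by gene. H2-DMb1, the beta chain of H2-DM, had 74.2 fragments (chromosome 17, 34153072 to 34160230, plus strand), and H2-DMa, its alpha chain, had 46.0 (chromosome 17, 34135182 to 34139101, plus strand). H2-DMb2, the neighbouring second beta gene, had 14.2 fragments. The longest coding transcripts of H2-DMb1 and H2-DMb2 were 94.6% identical over 1219 aligned bases, and 27.2% of the 50-base windows of H2-DMb1 also occurred in H2-DMb2. The split of fragments between them is therefore uncertain. Neither H2-O chain was detected: H2-Ob, the beta chain, had 1.64 compatible and 6.77 total fragments (chromosome 17, 34238903 to 34245907), so 24.3% of its fragments matched a transcript. H2-Oa, the alpha chain, had 1.12 compatible and 1.61 total fragments at a locus that also holds BC051537 and H2-Pa (chromosome 17, 34083843 to 34095309). BC051537 lies on the other strand, and 21.7% of the 50-base windows of H2-Oa occur in it. Over all 21 libraries these levels add up to 23.6 scaled fragments for H2-Oa and 34.5 for H2-Ob. From the authors' variance, 1 library held at least 41.2% of the compatible H2-Oa fragments and 1 held at least 33.6% of the H2-Ob fragments, where an even spread gives 4.76%. By total fragments these lower limits were 25.2% for H2-Oa and 6.43% for H2-Ob.

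The invariant chain gene Cd74 had 623 fragments at its locus on chromosome 18, which also holds the microRNA gene Mir5107. No 50-base window of Cd74 occurred in a transcript of another gene. Ctss had 399 fragments (chromosome 3, 95526786 to 95556403, plus strand) at a locus that also holds the pseudogene Hmgb1-ps5. The locus of Ciita had 441 compatible and 523 total fragments (chromosome 16, 10488178 to 10543054), but it also holds Dexi on the opposite strand. Ciita exons made up 61.8% of the exon bases of that locus, and 111 bases lay in exons of both genes. Each fragment of this locus counts once, whichever gene it came from, so 441 is an upper limit for Ciita and its own level is not known. The authors' annotation held 1 Ciita transcript, of 19 exons.

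Divided by exon length, Cd74 stood first at 442 ± 301 fragments per kb (the authors' SD over libraries here and below), followed by Ctss at 294 ± 91.1, H2-Eb1 at 118 ± 83.8 and H2-Ab1 at 91.9 ± 74.1. Then came the locus of Ciita at 83.9 ± 18.0 per kb of Ciita exons, or 51.9 per kb of the exons of both its genes. After it stood H2-DMb1 at 49.97 ± 19.8, H2-DMa at 28.0 ± 16.2 and H2-Aa at 21.3 ± 24.2. The last were H2-Oa at 0.856 ± 2.37 and H2-Ob at 0.521 ± 1.28. Ranges of 1 SD around neighbours in this order overlapped for every pair except Ctss and H2-Eb1, which missed each other narrowly. That exception used the exons of Ctss alone. Per kb of the exons of both names at its locus, Ctss stood at 209. Per kb, H2-Ab1 had 4.32 times the level of its partner H2-Aa, or 3.53 times when the longest annotated transcript set the length. H2-DMb1 had 1.78 times the level of H2-DMa, or 1.79 times by the longest transcript. Cd74 had 4.81 times the level of H2-Ab1, or 3.56 times by the longest transcript. The order of the neighbours H2-Ab1 and H2-Eb1 depended on the length used. The ratio of H2-Ab1 to H2-Eb1 was 0.777 by all exons and 1.05 by the longest transcript. The order of H2-DMa and H2-Aa also turned, at 29.6 and 35.2 per kb by the longest transcript. By total fragments the locus of Ciita, at 99.5 per kb, stood above H2-Ab1 at 92.5. H2-Ob, at 2.15 per kb, then stood above H2-Oa at 1.22.

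Along chromosome 17, the 7 class II members and their relatives lie within 261 kb that hold 16 loci of the table, 9 of them detected. Between H2-DMb1 and H2-Ob stand the loci of Psmb9 with Tap1 and of Psmb8 with Tap2, which serve class I antigen processing, with 298 and 272 fragments and CVs of 0.394 and 0.377. Brd2, a chromatin reader gene in the same stretch, had 2777 fragments with a CV of 0.127.

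**Figure D2:**
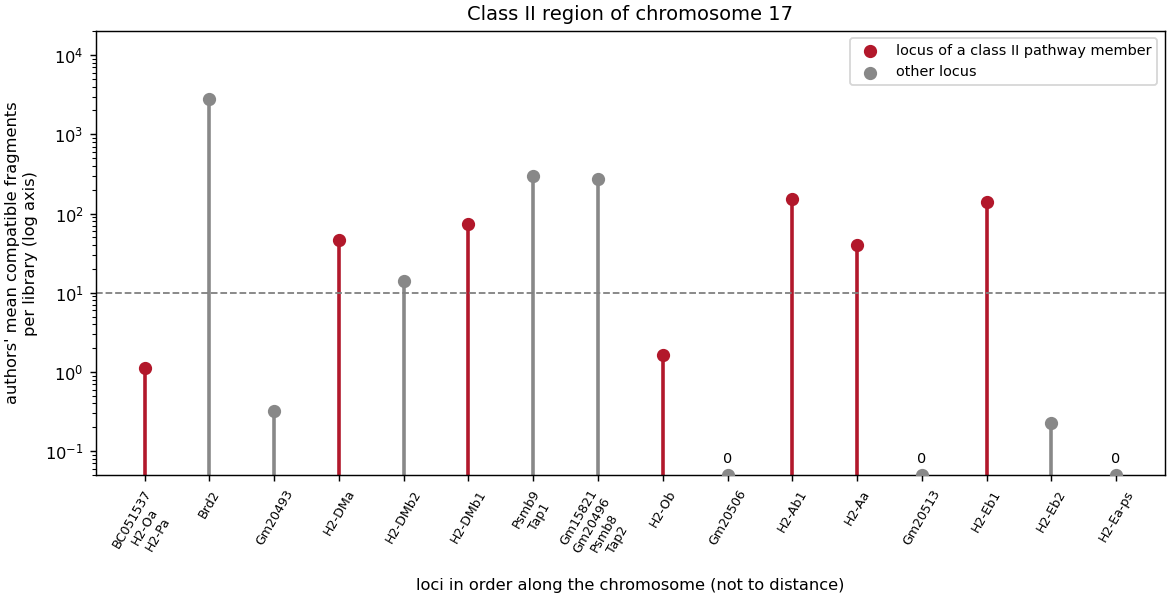
Authors' mean compatible fragments per library (log axis) for the 16 loci of the class II region in chromosomal order, not to distance. Member loci are red, other loci grey, 0 marks loci listed at 0 and the dashed line is the detection minimum of 10. H2-Ab1 (150.5), H2-Aa (39.9) and H2-Eb1 (140.2) stand above that line, and H2-Oa, H2-Ob and H2-Eb2 below it.

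Transcript assembly added unannotated transcript forms for 3 members. For 2 of them the form had an intron absent from its nearest reference transcript, and other reference transcripts were not compared. Forms absent from the reference, marked by the assembler's class code j, numbered 1 each for H2-Aa, H2-Ab1 and Cd74, and 0 for the other 7 members. The H2-Aa form had 1366 bases in 5 exons and 1 intron that its nearest reference transcript lacks. The Cd74 form had 9 exons, skipped 1 of the 10 exons of its nearest reference transcript and had 1 intron not in it. The H2-Ab1 form had 4 exons, and all 3 of its introns were those of the reference. The table gives no level for single transcripts.

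Variation between libraries was higher at the classical chains and Cd74 than at the H2-DM chains. It is given as the coefficient of variation (CV), the square root of the authors' variance over the mean. H2-Aa had a CV of 1.14, H2-Ab1 of 0.807, H2-Eb1 of 0.708 and Cd74 of 0.681. H2-DMa followed at 0.578, H2-DMb1 at 0.397, Ctss at 0.310 and the locus of Ciita at 0.214. The median over all detected loci was 0.231. Of the 8 detected members, 5 had a CV above the upper quartile of all detected loci, 0.449, where 25% of detected loci lie by definition. CV falls with level across loci, so the variance was also set against the variance that the authors' model fits at each mean. For Cd74 the authors' variance was 6.89 times the fitted one, for H2-Ab1 3.24 times, for H2-Aa 2.49 times and for H2-Eb1 2.36 times. Ctss was at 1.01 times, H2-DMa at 0.703, the locus of Ciita at 0.522 and H2-DMb1 at 0.460.

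Thus 5 of 8 detected members had a variance above the fitted one, where 26.1% of all detected loci did. At loci of a single gene name the count was 3 of 5, where 27.6% of such loci did. The median log2 ratio of variance to fitted variance was 0.63 over the 8 members and -0.65 over all detected loci. On the same log2 scale Cd74 stood at 2.79, higher than 98.6% of detected loci, and H2-Ab1 at 1.69, higher than 96.2%. H2-Aa stood at 1.32 and H2-Eb1 at 1.24, higher than 94.4% and 94.0% of detected loci. H2-DMb1 stood at -1.12, higher than 29.9%. These are descriptions of 1 value per locus, with no test, and the members were chosen with earlier results of these data known. H2-Oa and H2-Ob, below the detection minimum, had CVs of 2.77 and 2.46 by compatible fragments, 2.07 and 0.592 by total fragments, and are not in these counts. The variances were taken within sets of 8, 7 and 6 libraries, which do not match the labelled 7 per group, so a difference between the sets adds nothing to them. Which libraries were high or low is not given by the table.

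**Figure D3:**
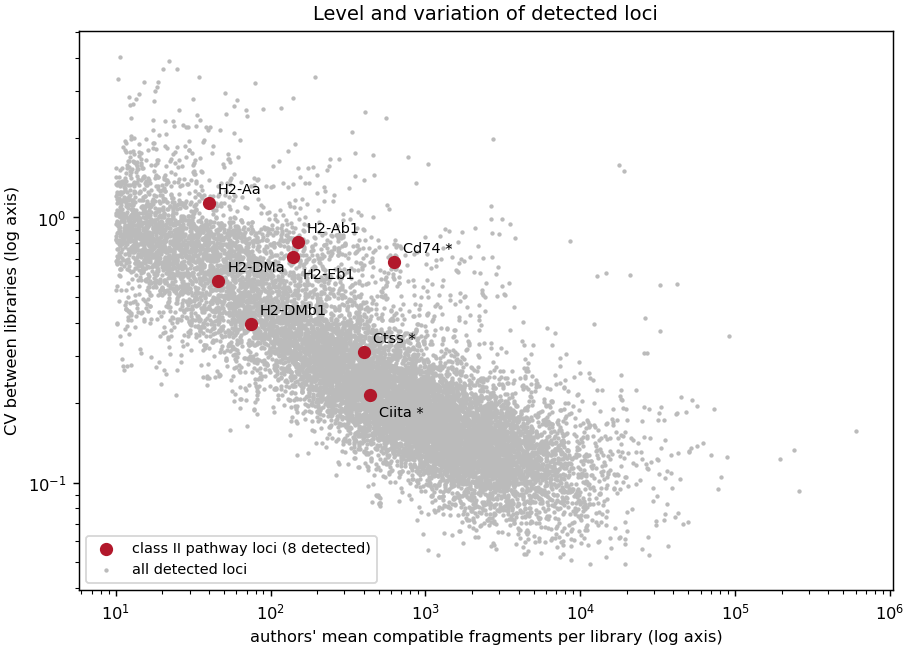
Each grey point is 1 of 13467 detected loci, by the authors' mean compatible fragments (x, log axis) and the CV between libraries (y, log axis); red points are the 8 detected members, * marking loci shared with another gene name. Cd74 (CV 0.681 at 623 fragments), H2-Ab1, H2-Eb1 and H2-Aa lie above most loci of their level, while H2-DMa, H2-DMb1 and the locus of Ciita lie among them.

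Loci of all 8 genes for the transactivator and the X and Y box factors were detected, at 441 to 3863 fragments, of which 4 hold no other gene name. The lowest, at 441, is the locus that Ciita shares with Dexi, so detection of Ciita itself is not known. Creb1, whose product binds the X box region, had 3863 fragments and Nfyb, a subunit of the Y box factor NF-Y, had 2201. These are levels of whole loci and not per length. The median log2 variance ratio of this list was -0.53, and 2 of 8 lay above the fitted variance, where 26.1% of all detected loci did. Of 8 genes on the route from interferon gamma to Ciita, 7 were detected, among them the kinase gene Jak2 with 3178 fragments and the receptor gene Ifngr2 with 1608. The gene not detected was Ifng itself, the ligand, listed at 0 compatible and 1.12 total fragments.

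Loci of the proteases and inhibitors of the endosome were all detected, 10 of 10 with Cd74 and Ctss included. Of all gene names, 52.7% were detected. In this list, 5 lay at loci of a single name, where 20.1% of all gene names were detected. Ctsl, a cathepsin that degrades the invariant chain in thymic epithelium, had 17464 fragments with a CV of 0.107, and Cst3, an inhibitor of cysteine cathepsins, had 2501 with a CV of 0.119. The median log2 variance ratio of this list was -0.88, with 3 of 10 above the fitted variance, where 26.1% of all detected loci lay. Loci of genes for class II turnover and its regulation were detected for 4 of 4. Il10 had 563 fragments and Cd83, which steadies class II at the cell surface, had 273. Both lay at loci of a single name. The other genes of this list share their loci with other names, so their own detection is not known. Genes for costimulation and T cell contact were detected for 2 of 8. Cd274, the inhibitory ligand PD-L1, had 181 fragments and Icosl, the ligand of ICOS, had 28.8. The classical costimulatory genes Cd80 and Cd86, named after their values were seen, had 0.752 and 8.44 compatible fragments. By total fragments they had 11.0 and 9.99, which puts Cd80 above the minimum of 10.

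**Figure D4:**
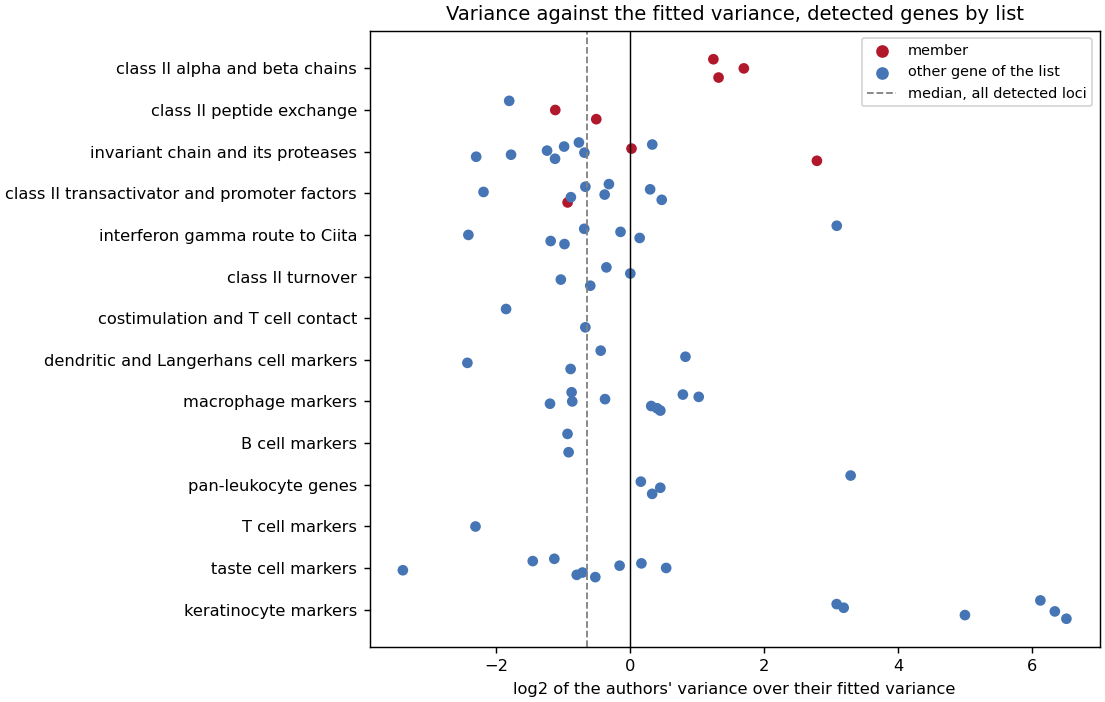
Log2 of the authors' variance over their fitted variance (x) for the detected genes of each list (rows), members in red and other genes in blue, with the median of all detected loci dashed. The classical chains lie between 1.24 and 1.69, the detected H2-DM genes lie below 0, and keratinocyte markers lie between 3.08 and 6.51.

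Markers of the cells that usually carry class II were read beside the members. For the counts of these and the other gene lists, 52.7% of all gene names were detected, or 20.1% at loci of a single name. Of 6 leukocyte genes 4 were detected, and the levels of all 6 ran from 8.31 to 47.4 fragments. Those under the minimum were the adaptor genes Tyrobp and Fcer1g, which are typical of myeloid and natural killer cells, with 8.31 and 9.76 compatible and 16.1 and 12.9 total fragments. Cd53 had 33.0 fragments with a CV of 0.854 and Laptm5 had 26.5 with a CV of 0.860. Ptprc, the leukocyte antigen CD45, had 47.4 fragments and a CV of 2.14, and its locus holds 1 other name. Macrophage markers were detected for 9 of 11, of which 5 lay at loci of a single name, with Cd68 at 96.6 fragments and the complement gene C1qc at 61.7. Those not detected were Itgam and Fcgr1, which were under the minimum by total fragments too. Dendritic and Langerhans cell markers were detected for 4 of 11, 10 of which were measured, with Batf3 at 26.8 and Itgax at 21.3 fragments. Cd207, the Langerhans cell lectin, had 8.54 fragments, just under the detection minimum.

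B cell markers were detected for 2 of 8. These were Blnk with 2042 and Cd79b with 70.5 fragments, while the defining gene Cd79a had 0.330. T cell markers were detected for 1 of 7, Trbc2 with 27.4 fragments, and Cd3e was listed at 0. The detected leukocyte genes had a median CV of 0.911 and a median log2 variance ratio of 0.39, with 4 of 4 above the fitted variance. For macrophage markers the median ratio was 0.31, with 5 of 9 above. Of all detected loci, 26.1% lay above. Whether these cells account for the class II values was not tested.

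Taste cell markers were detected for 9 of 9, of which 5 lay at loci of a single name, with Krt8 at 37058 and Gnat3 at 24576 fragments. These markers had a median log2 variance ratio of -0.71, with 2 of 9 above the fitted variance, where 26.1% of all detected loci lay. Keratinocyte markers were also present, with 6 of 6 detected, Krt6a at 41906 and Krt4 at 19096 fragments. They had a median ratio of 5.56 and 6 of 6 above the fitted variance. How far the amount of surface epithelium in each library moves with the class II values was not tested, since the table gives no value per library.

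Loci of similar level and variance ratio were sought among detected single-gene protein-coding loci, by distance in log10 level and log2 ratio. Since all libraries are pooled in 1 value per locus, likeness here means a similar level and spread and not a shared pattern over libraries. Nearest to Cd74 was Rdh12 with 572 fragments and a log2 ratio of 2.80. Nearest to H2-Ab1 were Rrm2 with 139 fragments and a ratio of 1.67, and Slfn2 with 164 fragments and a ratio of 1.67. Nearest to H2-DMb1 was Pigz with 75.5 fragments and a ratio of -1.13.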

How the data were processed

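RNA of 21 libraries was measured, labelled as 7 each from Hungry, Satiated and Ad lib mice. The submitters' processing notes name TopHat and Bowtie2, Cufflinks and Cuffdiff, FastQC and Trimmomatic, with build GRCm38.p4; settings: not given in the sources used here. Per locus, the authors deposited a signal, the mean over libraries of fragments scaled by library size factors, beside variances and a fitted variance. It is not divided by length. The mean library held 21881979 compatible and 23769781 total fragments. No single-library values were analysed here, so the labels' groups entered no test.

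Exons were assigned to loci by position, and gene names came from the authors' merged annotation. Levels per kb used the union of a gene's exons. Loci with fragments in 1 library showed the variance to be taken within sets of 8, 7 and 6 libraries and divided by 21 (474, 667 and 454 loci within a relative tolerance of 0.0001). These sets differ from the labelled 7 per group, and the table does not give their libraries. The leading library holds at least the variance over squared mean, plus 1, divided by 21, of a locus's fragments. Transcripts for identity and 50-base windows came from GENCODE M21, promoters from RefSeq. Steps across loci were tested on simulated data. Named genes were all 10 members, the classical and exchange chains, the 2 list genes of highest level at loci of a single name, and the nearest loci; other names were chosen after their values were seen. Members, lists, motifs and alternatives were chosen with earlier results of these data known. The design's assumption of a pooled description held. 1 listed dendritic cell gene was not analysed here. Levels of 2 list genes are not reported here. Python 3.11.15, numpy 2.4.6, pandas 2.3.3, Biopython 1.88 and matplotlib 3.10.9 were used.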

Additional observations from a re-analysis of the deposited data

How the results depend on the processing

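No paired analysis was possible because the table gives no value per library, so libraries could not be left out either. At loci of a single gene name, 5 members were detected and 3 lay above the fitted variance. The count above at such loci, and levels per kb over all exons of a locus, were chosen after seeing the data. Against a running median of loci of similar level the count above was 5 by compatible and by total fragments, and no member's ratio changed sign. In the order by level per kb, 6 of the 10 members kept their place with the longest transcript and 6 with total fragments. By total fragments H2-Ob had 6.77 fragments and a CV of 0.592. At a minimum of 1 fragment, the detection counts were 5 for peptide exchange, 5 for costimulation, 9 for dendritic, 4 for B cell and 2 for T cell genes. With at least 50 fragments they were 1 for peptide exchange, 1 for costimulation, 0 for dendritic, 5 for macrophage, 0 for leukocyte and 0 for T cell genes. By total fragments they were 4 for costimulation and 4 for B cell genes, and also 6 for dendritic and 6 for leukocyte genes. At loci of a single gene name they were 5 for the invariant chain and proteases, 4 for promoter factors, 4 for the interferon gamma route, 2 for turnover, 2 for dendritic, 5 for macrophage and 5 for taste cell genes. Of 142 alternative values computed, 30 moved. Depth limits H2-Oa and H2-Ob most, at under 2 compatible fragments per library.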

Other observations

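At some loci of the lists, few of the fragments matched an annotated transcript. Bank1, a B cell scaffold gene, was listed at 0 compatible fragments and had 225 total fragments per library. Cr2, the complement receptor of B cells, had 1.99 compatible and 45.2 total fragments. In the class II region, Gm20493, next to H2-DMa, had 0.317 compatible and 28.4 total fragments, and H2-Ob had 1.64 and 6.77. Bank1, Cr2 and Gm20493 were above the minimum of 10 by total fragments and below it by compatible fragments, while H2-Ob was below it by both. The cause was not tested.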
